A study of Mus musculus with 4 samples.

Results

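A set of 10 genes that mark the epicardium and other mesothelia was followed in RNA from mouse hearts, out of 24454 genes in the count table. They were *Wt1*, *Tbx18*, *Aldh1a2*, *Upk3b*, *Upk1b*, *Msln*, *Lrrn4*, *Krt8*, *Krt18* and *Krt19*, found by their Entrez gene numbers. All 10 were in the table, and all 10 passed the filter on low counts. The set was put together with the 4 libraries already in view, so every difference between the groups in these 10 genes is a description. Where a call of the fit over all genes is given for them, it shows how the values sat in that fit and tests nothing about the set.

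The libraries came from hearts at postnatal day 7 (P7), with 2 libraries of control hearts (Ctrl, named WH7 and WH8) and 2 of hearts overexpressing *miR-128* (miR-128OE, named WH9 and WH10). Both groups carried the *miR-128* responder transgene (miR-128TetRE) on a C57BL/6 background. The miR-128OE mice also carried a tetracycline transactivator under the α-MHC promoter (α-MHC-tTA), which is active in cardiomyocytes (CMs) and is silenced by doxycycline. The labels do not say whether the atria were included, whether a library held 1 heart or several, nor how doxycycline was given, so the spread between libraries may be technical in part. The Ctrl mice lacked the transactivator, so its presence and that of *miR-128* cannot be told apart here.

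The epicardium is the sheet of mesothelial cells that covers the heart. Like the mesothelium of the pleura and peritoneum, it is an epithelium of mesodermal origin that holds simple keratins and carries uroplakins and mesothelin at its surface. In the fetal heart, it depends on WT1 and TBX18 and makes retinoic acid through ALDH1A2, and some of its cells leave the sheet, lose epithelial genes and become fibroblasts and mural cells. After birth the sheet stays as a thin and largely quiet layer. The α-MHC promoter is not active in it, so the transgene was driven in another cell type than the one these genes mark.

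The libraries held 8096870 to 14359838 counts. A floor of 3 counts corresponded to 0.209 to 0.371 CPM (the count of a gene over the library total, on the usual scale) and covers counting error only, since reads without molecular identifiers are not independent molecules. CPM below are scaled with TMM factors, which align the bulk of the genes between libraries. Both Ctrl libraries had high *Xist* (1130 and 1361 CPM), against 7.91 and 9.43 CPM in miR-128OE, and the Y-linked *Ddx3y* was opposite (1.01 and 0.840 against 121 and 126 CPM). The sex of the mice and the transgene therefore cannot be told apart in any comparison of the groups. The Ctrl libraries WH7 and WH8 stood apart from each other. Genes of atrial myocytes summed to 5882 CPM in WH7, 702 in WH8, 2110 in WH9 and 2702 in WH10. WH7 held the highest sum and WH8 the lowest, so the sums do not tell which Ctrl library was the unusual one. Results are given with and without WH7, for the genes of the set also without WH8, and without another library where that changed a call. In bulk tissue, fewer cells of a type and less RNA per cell cannot be told apart.

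All 10 genes were detected in every library. Per kilobase of exon, *Aldh1a2* had the highest level of the 10 genes, at 36.0 CPM per kb as the mean of the 4 libraries, above all others in each library. The level was 9.67 for *Msln*, 7.04 for *Krt18*, 6.84 for *Tbx18*, 4.401 for *Krt19*, 3.64 for *Wt1*, 3.21 for *Upk3b*, 2.59 for *Upk1b*, 2.29 for *Krt8* and 1.23 CPM per kb for *Lrrn4*. The median tested gene had 5.14 CPM per kb. In this order, only *Aldh1a2* and *Msln*, and *Tbx18* and *Krt19*, were neighbours whose libraries did not overlap. The lowest raw count of a marker was 17, for *Lrrn4* in WH8.

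**Figure D1:**
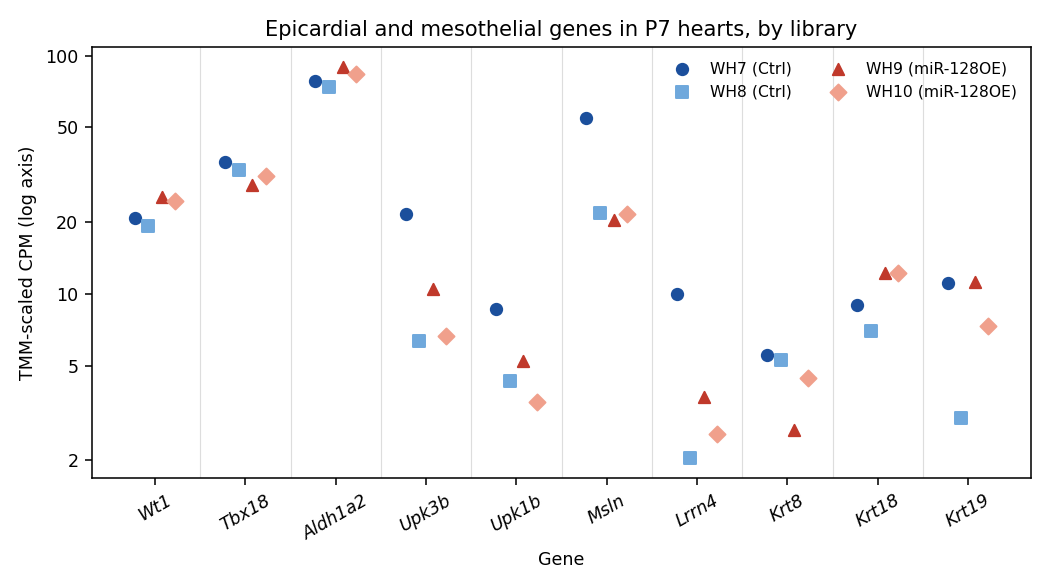
TMM-scaled CPM (log axis) of the 10 epicardial and mesothelial genes, 1 point per library, with Ctrl in blue and miR-128OE in red. *Wt1*, *Tbx18* and *Aldh1a2* lay close together in the 4 libraries, whereas *Upk3b*, *Msln* and *Lrrn4* had a single high point, the Ctrl library WH7 at 21.7, 54.6 and 9.94 CPM.

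The seed of the overexpressed miRNA was looked up in the 3′ untranslated regions (3′UTRs) of the 10 genes, to show which of them hold its letters. The mature sequence, from RefSeq, is printed with its seed (bases 2 to 8) in capitals.
mmu-miR-128-3p: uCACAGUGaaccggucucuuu

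A match is the reverse complement of the seed or of bases 2 to 7 followed by A. Of the 10 genes, 4 held at least 1 match (*Wt1*, *Upk3b*, *Upk1b* and *Lrrn4*), against 33.2% of the 13339 tested genes with a 3′UTR in GENCODE M21. *Upk1b* held 2 matches. The 3′UTRs of *Tbx18* (2421 bases), *Aldh1a2* (649), *Krt8* (242), *Msln* (129), *Krt19* (103) and *Krt18* (66) held none. The sites below, with exons counted along the transcript, are transcript-strand sequence of GRCm38 with the match in capitals.
Wt1, chr2:105173513-105173519 (+), exon 10: attagctgcatCACTGTGtggatgtcaat
Upk3b, chr5:136046360-136046366 (+), exon 6: ttttttaaattACTGTGAttttgaggcca
Upk1b, chr16:38773608-38773614 (-), exon 8: cttttgtttgtCACTGTGtaggctggggg
Upk1b, chr16:38773579-38773586 (-), exon 8: gaggagggttgCACTGTGAaagaggaggaa
Lrrn4, chr2:132869444-132869450 (-), exon 5: acacagaactaCACTGTGtcctcctctgt

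These letters are a description of the sequence and not evidence of binding. Levels of the 4 genes with a match did not share 1 direction, with *Wt1* on the higher side and the others on the lower side in the fit of all libraries.

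Among the regulators of the epicardial state, the libraries differed little. *Wt1*, which encodes the zinc finger transcription factor that defines the epicardial lineage, lies on chromosome 2 (GRCm38, chr2:105126529-105173616, plus strand). It was at 20.8 and 19.2 CPM in WH7 and WH8, and at 25.7 and 24.6 CPM in WH9 and WH10. Both miR-128OE libraries were higher than both Ctrl libraries. The means were 20.01 ± 1.14 in Ctrl and 25.1 ± 0.709 CPM in miR-128OE (SD, n = 2 each). The log2 difference was 0.32 with a standard error (SE) of 0.12, with 0.39 without WH7 and 0.28 without WH8.

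*Tbx18* encodes a T-box factor of the epicardium, the sinus horn and mural cells (chr9:87702800-87731260, minus strand). Its levels were 36.0 and 33.1 CPM in Ctrl and 28.8 and 31.2 CPM in miR-128OE, so that the groups did not overlap and miR-128OE was lower. The log2 difference was -0.21 (SE 0.11), with -0.14 without WH7 and -0.26 without WH8. Reads of *Tbx18* are uncertain over 970 exon bases, which it shares with *D030062O11Rik* on the opposite strand. *Aldh1a2* encodes the enzyme that makes retinoic acid in the epicardium (chr9:71215789-71296243, plus strand). It was at 78.3 and 74.0 CPM in Ctrl and 89.8 and 83.8 CPM in miR-128OE. Again the groups did not overlap, with a log2 difference of 0.19 (SE 0.08), of 0.23 without WH7 and of 0.15 without WH8.

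*Wt1* is also found in endothelial cells and *Tbx18* in mural and sinoatrial cells. The 6 endothelial markers summed to 1659 and 1675 CPM in Ctrl and 1762 and 1684 CPM in miR-128OE. The mural markers summed to 1878 and 1745 CPM in Ctrl and 2244 and 2567 CPM in miR-128OE, and the 4 sinoatrial markers to 38.4, 47.1, 53.8 and 57.7 CPM in the order WH7 to WH10. Within the mural list the genes did not move together, with *Acta2* at 627, 579, 1060 and 1253 CPM and *Myh11* at 193, 182, 87.6 and 153 CPM in the order WH7 to WH10. The part of these cells in the values of *Wt1* and *Tbx18* was not tested.

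The surface genes of the mesothelium behaved differently, because the 2 Ctrl libraries were far apart. *Upk3b* encodes a uroplakin of the mesothelial surface (chr5:136038496-136046487, plus strand). It was at 21.7 CPM in WH7 and 6.36 CPM in WH8, with 10.5 and 6.64 CPM in WH9 and WH10. Both miR-128OE values lay between those of the 2 Ctrl libraries.

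*Lrrn4*, a leucine-rich repeat membrane protein used as a mesothelial marker, lies on the minus strand at chr2:132868305-132880891. It had 9.94 CPM in WH7, 2.04 in WH8, 3.70 in WH9 and 2.57 in WH10, the same order of libraries as for *Upk3b*. *Msln* encodes mesothelin, a glycoprotein anchored in the mesothelial membrane (chr17:25748613-25754378, minus strand). It had 54.6 CPM in WH7 and 21.9, 20.4 and 21.6 CPM in WH8, WH9 and WH10. Thus 3 of 4 libraries were close and WH7 alone was high. *Upk1b*, a tetraspanin that partners with uroplakins of the third class (chr16:38773184-38800328, minus strand), had 8.62 and 4.32 CPM in Ctrl and 5.21 and 3.50 CPM in miR-128OE.

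With all libraries, the log2 differences of these 4 genes were -0.78 (SE 0.44) for *Upk3b*, -1.02 (SE 0.55) for *Lrrn4*, -0.90 (SE 0.32) for *Msln* and -0.62 (SE 0.34) for *Upk1b*. Their group means and SDs were 14.1 ± 10.9 against 8.58 ± 2.74 CPM, 5.99 ± 5.59 against 3.14 ± 0.798 CPM, 38.2 ± 23.2 against 21.0 ± 0.806 CPM and 6.47 ± 3.04 against 4.36 ± 1.21 CPM, Ctrl first, with n = 2 each. The Ctrl spread was the wider in all 4. Without WH7 the differences were 0.42, 0.61, -0.05 and -0.00, so the lower values of miR-128OE rested on that library. Without WH8 they were -1.35, -1.67, -1.37 and -0.99. A group with 1 library left was assumed to vary as the other group did.

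The starts of *Upk3b* and *Lrrn4* are shown because these genes had the same order of libraries, with that of *Aldh1a2*, the gene of the highest level, beside them. Each is RefSeq sequence of GRCm38.p6 on the gene's strand, from 250 bases before the start to 50 after it, and capitals mark a searched motif.
Upk3b, chr5:136038246-136038545 (+): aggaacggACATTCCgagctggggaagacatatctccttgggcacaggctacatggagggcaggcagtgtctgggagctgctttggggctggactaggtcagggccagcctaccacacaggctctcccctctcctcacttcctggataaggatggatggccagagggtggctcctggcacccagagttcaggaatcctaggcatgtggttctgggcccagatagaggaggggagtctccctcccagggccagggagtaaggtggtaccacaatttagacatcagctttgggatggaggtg
Lrrn4, chr2:132880813-132881112 (-): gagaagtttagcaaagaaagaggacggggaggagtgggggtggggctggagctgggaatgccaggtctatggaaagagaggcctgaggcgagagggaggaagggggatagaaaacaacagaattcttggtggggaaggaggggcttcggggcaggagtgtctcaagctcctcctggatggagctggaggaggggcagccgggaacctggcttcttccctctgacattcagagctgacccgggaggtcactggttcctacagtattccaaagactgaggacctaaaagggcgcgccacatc
Aldh1a2, chr9:71215539-71215838 (+): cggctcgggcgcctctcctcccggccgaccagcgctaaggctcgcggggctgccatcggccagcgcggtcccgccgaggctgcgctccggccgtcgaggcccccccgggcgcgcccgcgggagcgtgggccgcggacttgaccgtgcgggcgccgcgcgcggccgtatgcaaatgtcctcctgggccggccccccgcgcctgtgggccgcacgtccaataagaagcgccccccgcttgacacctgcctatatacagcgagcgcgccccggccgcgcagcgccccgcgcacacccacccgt

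RefSeq starts matched 6 of the 10 genes (*Tbx18*, *Aldh1a2*, *Upk3b*, *Lrrn4*, *Krt8* and *Krt18*). The letters GCGTGGGNG (the WT1 and EGR type), ACATTCC (the TEAD type) and GGGCGG (the GC box) were searched on both strands. The single match was ACATTCC in *Upk3b*, at position 9 of the 300 bases. Among 32851 promoters of the same length, 1.90% held the first motif, 3.85% the second and 35.7% the third. Of these windows, *Aldh1a2* had 78% G and C, against 58.7% in *Upk3b* and 58.0% in *Lrrn4*. A match is a description of letters, and no match says nothing of the factor.

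The 3 keratins, which form the filaments of simple epithelia, each had a pattern of their own. *Krt8* and *Krt18* encode the partners of 1 filament and lie 23697 bases apart on chromosome 15, at chr15:101996698-102004482 (minus strand) and chr15:102028180-102032027 (plus strand). *Krt8* had 5.52 and 5.28 CPM in Ctrl and 2.69 and 4.43 CPM in miR-128OE. *Krt18* had 9.01 and 6.96 CPM in Ctrl and 12.3 and 12.2 CPM in miR-128OE. Neither overlapped between the groups, but the partners differed in direction, *Krt8* with a log2 difference of -0.59 (SE 0.29) and *Krt18* of 0.60 (SE 0.18). Without WH7 the values were -0.55 and 0.81, and without WH8 they were -0.61 and 0.45. The ratio of *Krt18* to *Krt8* per kilobase was 2.23 and 1.80 in Ctrl and 6.22 and 3.76 in miR-128OE. *Krt8* shares 101 exon bases with *Gm36026* on the opposite strand, and its counts were low, at 32 to 71.

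*Krt19*, a small keratin of simple epithelia (chr11:100140810-100148665, minus strand), had 11.1 CPM in WH7, 3.001 in WH8, 11.2 in WH9 and 7.36 in WH10. The low library was WH8, and the Ctrl range held 1 of the miR-128OE values with the other just above it. Its log2 difference was 0.30 (SE 0.44), 1.61 without WH7 and -0.27 without WH8.

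**Figure D2:**
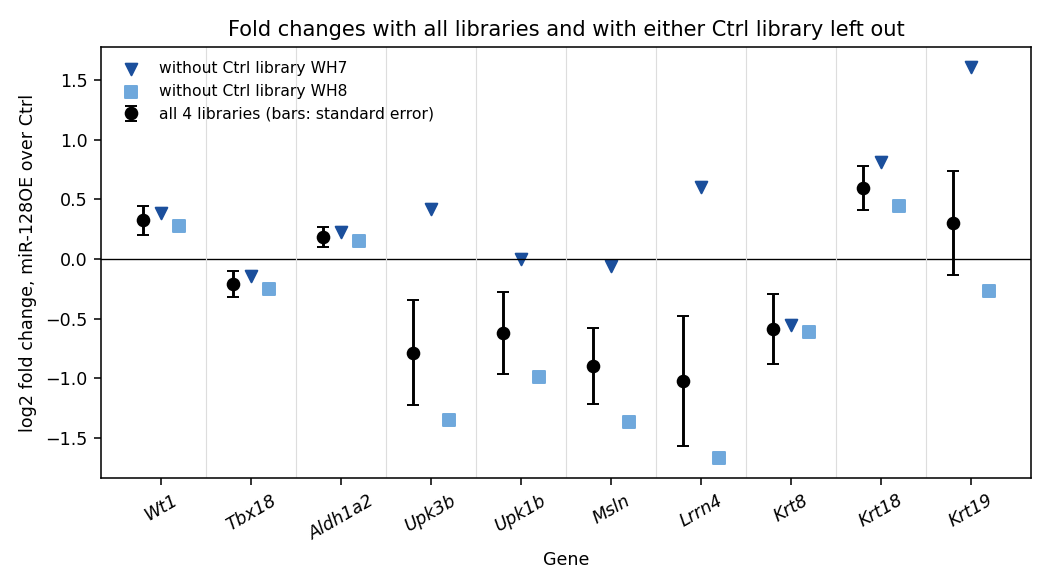
Log2 fold change of miR-128OE over Ctrl for each of the 10 genes, from all 4 libraries (black points with SE bars) and with either Ctrl library left out (blue triangles without WH7, light squares without WH8). The estimates of *Wt1*, *Tbx18* and *Aldh1a2* nearly coincided, whereas that of *Lrrn4* ran from -1.67 to 0.61 and that of *Krt19* from -0.27 to 1.61.

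Counted over the 10 genes, both miR-128OE libraries were lower than both Ctrl libraries in 3 (*Tbx18*, *Msln* and *Krt8*) and higher in 3 (*Wt1*, *Aldh1a2* and *Krt18*), and the groups overlapped in 4. Over all 14266 tested genes the shares were 34.4% lower and 33.7% higher. A gene was called at an adjusted p under 0.05 by the edgeR quasi-likelihood test, adjusted after Benjamini-Hochberg over all genes, and 31.5% of tested genes were called, 16.5% higher and 15% lower. Of the 10 genes, 1 was called (*Krt18*, higher) and 0 were lower. Since the set was chosen on this contrast, nothing is read from that count. *Krt18* lost its call without WH8, without either miR-128OE library, with total counts as the scale and in DESeq2. *Msln* was called lower by the exact and likelihood ratio tests of edgeR and with total counts. Over all 14266 genes the exact test called 4886 (2475 higher), the likelihood ratio test 4972 (2513 higher) and total counts 4559 (1611 higher). With no filter on low counts, *Msln*, *Upk3b* and *Lrrn4* were called lower, where 5323 of 18880 genes were called, 2820 of them higher. Without WH7, 2 genes were called higher (*Krt18* and *Krt19*) and 0 lower, where the shares of all 14566 genes tested were 18.2% and 16.4%. Without WH8, 4 were called lower (*Upk3b*, *Upk1b*, *Lrrn4* and *Msln*) and 0 higher, where 14.2% of all 14641 genes tested were lower. The median log2 difference of the 10 genes was -0.40, and 0.31 without WH7, beside medians over all tested genes of -0.01 and -0.00.

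The spread between the 2 Ctrl libraries split the genes into 2 sets. In WH7, 5 of the 10 genes were at least 1.5 times as high as in WH8, as were 6.11% of all tested genes, and 0 of the 10 were that much lower, against 4.43%. The fold of WH7 over WH8 was 4.87 for *Lrrn4* (95% exact counting interval 2.93 to 8.62), 3.70 for *Krt19* (2.41 to 5.91), 3.42 for *Upk3b* (2.54 to 4.68), 2.50 for *Msln* (2.12 to 2.96) and 1.995 for *Upk1b* (1.36 to 2.99). These folds stood at the 97.5th to 99.6th percentile of all tested genes. The folds of *Krt18* (1.29), *Tbx18* (1.09), *Wt1* (1.08), *Aldh1a2* (1.06) and *Krt8* (1.04) had intervals that included 1. The intervals cover counting error only, not the spread between hearts. Summed over the 5 genes that were high in WH7, the level was 106 CPM in WH7, 37.6 in WH8, 51.0 in WH9 and 41.7 in WH10. Summed over the other 5, it was 150, 139, 159 and 156 CPM. This split was made on the values and is a description.

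Between WH9 and WH10, 3 of the 10 genes differed at least 1.5 times, against 7.16% of all tested genes. *Krt8* was 1.65 times as high in WH10, whereas *Upk3b* and *Krt19* were 0.632 and 0.658 times as high there. The ratio of *Msln* to *Wt1* per kilobase, a comparison of the surface with the regulator within a library, was 5.30 in WH7 and 2.30, 1.61 and 1.77 in WH8, WH9 and WH10. That of *Upk3b* to *Wt1* was 1.83 in WH7 and 0.581, 0.719 and 0.473 in the others. By both ratios WH7 was the library apart, but *Msln* and *Upk3b* were among the genes grouped above as high in WH7 over WH8. The ratios therefore cannot tell which Ctrl library was the unusual one. For *Krt19*, a gene of the same group, WH8 was the low library.

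**Figure D3:**
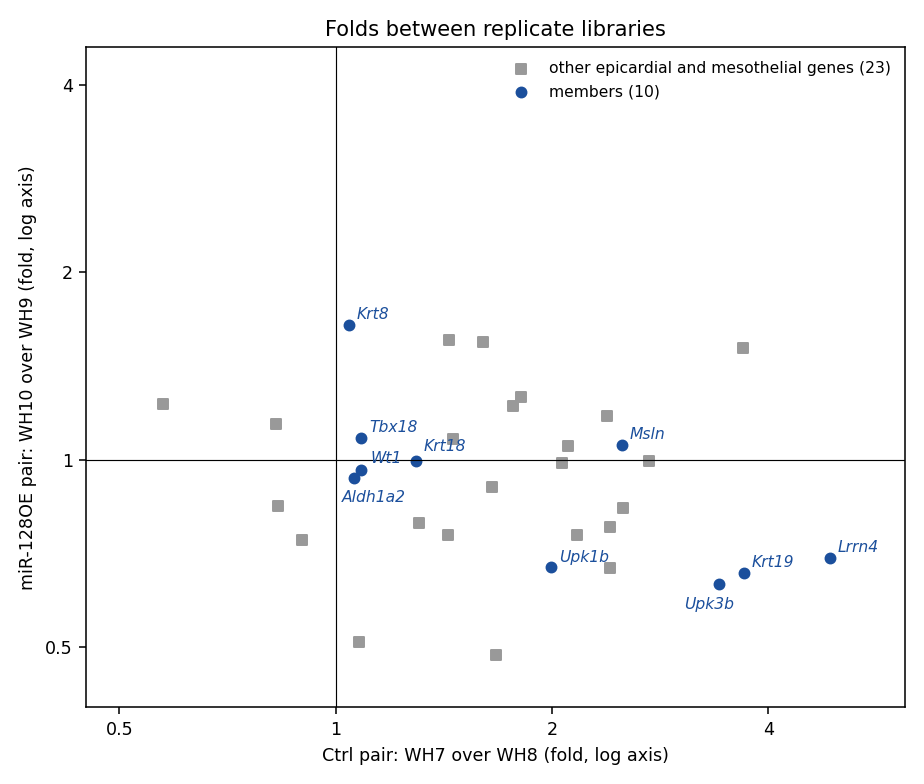
Fold of WH7 over WH8 (the Ctrl pair, horizontal) against fold of WH10 over WH9 (the miR-128OE pair, vertical), both on log axes, for the 10 genes (blue) and 23 other epicardial and mesothelial genes with more than 3 counts in every library (grey). *Lrrn4*, *Krt19*, *Upk3b*, *Msln* and *Upk1b* lay at 1.995 or more on the horizontal axis, and most grey points lay to the right of 1.

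Other genes of the epicardium and mesothelium, taken as a list, also differed between the Ctrl libraries. Of 27 listed genes 26 were in the table, *Muc16* was not analysed here, and 23 were tested. In WH7, 15 of the 23 were at least 1.5 times as high as in WH8 and 1 was that much lower (*Slpi*), and the median fold was 1.76, where the median of all tested genes was 0.987. Summed CPM of the list were 434 in WH7, 297 in WH8, 359 in WH9 and 334 in WH10. Much of these sums came from *Ezr* (93.8, 113, 138 and 116 CPM) and *C3* (90.3, 36.0, 23.3 and 19.5 CPM), in the same order. *Ezr* was lower in WH7 than in WH8, opposite to the sum. The defining marker *Calb2* was at or under 3 counts in every library.

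In the comparison of the groups, 2 of the 23 genes rose and 4 fell in miR-128OE, while 17 were not called. Over all tested genes 16.5% were called higher and 15% lower, shares that stand beside each list below as well. *Scx*, a transcription factor of tendon and epicardial progenitors, rose from 5.05 and 6.12 to 10.3 and 11.7 CPM (log2 fold change 0.99, SE 0.20, adjusted p = 0.00604). *Rarres2*, which encodes the secreted chemerin, was at 22.1 and 10.7 CPM in Ctrl and 28.2 and 27.9 CPM in miR-128OE (0.73, SE 0.25, adjusted p = 0.0483). Both were higher in each miR-128OE library than in either Ctrl library, as were 33.7% of all tested genes.

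*C3*, the central complement component, was at 90.3 and 36.0 CPM in Ctrl and fell to 23.3 and 19.5 CPM (-1.59, SE 0.33, adjusted p = 0.00666). *Fgf9*, a growth factor that the fetal epicardium sends to the myocardium, was at 21.4 and 23.8 CPM in Ctrl and 17.9 and 13.3 CPM in miR-128OE (-0.53, SE 0.16, adjusted p = 0.034). In *Prr15* the levels were 9.24 and 5.76 against 2.36 and 3.64 CPM (-1.33, SE 0.32, adjusted p = 0.0115). These 3 and *Efemp1* had groups without overlap, as did 34.4% of all tested genes with miR-128OE lower. *Efemp1*, an extracellular matrix glycoprotein, had 13.6 and 5.64 CPM in Ctrl and 5.05 and 3.93 CPM in miR-128OE (-1.15, SE 0.36, adjusted p = 0.038). *C3* was the only one of the 6 that kept its call with each of the 4 libraries left out in turn, but its log2 fold change was -0.76 without WH7 and -2.08 without WH8. *Scx* lost its call without WH10 (adjusted p = 0.0578). *Rarres2* had a log2 fold change of 1.39 without WH7 and of 0.35 without WH8, where its call was lost (adjusted p = 0.0505), as it was without WH9 or WH10. *Fgf9* was not called without WH8 (adjusted p = 0.0598) or WH10, *Prr15* without WH7 (0.0615) or WH9, and *Efemp1* without WH7 (-0.34, adjusted p = 0.445), WH9 or WH10. The balance of the list turned with the Ctrl library left out. Without WH7 the median log2 fold change of the list was 0.11 and without WH8 it was -0.54, beside -0.41 with all libraries. Over all tested genes the median was -0.01 with all libraries and -0.00 without WH7.

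Genes of retinoic acid synthesis and response, the pathway that *Aldh1a2* feeds, were taken from another list. Of 18 genes 14 were tested, of which 2 rose and 3 fell, and the median log2 fold change was -0.09. *Cyp26a1*, the enzyme that degrades retinoic acid, fell from 45 and 24 counts in WH7 and WH8 to 3 and 7 counts in WH9 and WH10, or from 3.50 and 2.88 to 0.252 and 0.5001 CPM (-3.03, SE 0.46, adjusted p = 0.00132). The count in WH9 was at the floor. *Aldh1a1*, a second retinaldehyde dehydrogenase, fell from 10.02 and 8.40 to 4.88 and 3.93 CPM (-1.08, SE 0.23, adjusted p = 0.00694). The receptor gene *Rara* rose from 37.6 and 33.97 to 51.5 and 55.1 CPM (0.57, SE 0.10, adjusted p = 0.00284). Each of these had groups without overlap, as did 34.4% of all tested genes on the lower side and 33.7% on the higher. *Cyp26a1* and *Rara* kept their calls with each library left out in turn, and *Aldh1a1* lost its call only without WH10 (adjusted p = 0.0677). The other called genes, *Rxrg* (0.64) and *Rarb* (-0.35), are named after their values were seen, and *Rarb* lost its call with any library left out and *Rxrg* without WH9 or WH10.

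Among 13 genes of the epicardial to mesenchymal transition, 1 rose and 2 fell, with a median log2 fold change of 0.11. *Cdh2*, the N-cadherin of myocardium and epicardium, rose from 240 and 273 to 353 and 335 CPM (0.43, SE 0.09, adjusted p = 0.00658). *Itga4*, an integrin of the epicardial surface, fell from 18.9 and 17.6 to 11.7 and 13.7 CPM (-0.53, SE 0.15, adjusted p = 0.0237). *Zeb2*, a transcriptional repressor, fell from 89.9 and 83.9 to 60.05 and 74.2 CPM (-0.37, SE 0.11, adjusted p = 0.0277). *Cdh2* and *Zeb2* lost their calls only without WH9, and *Itga4* was called only with all libraries or without WH8. Of 15 keratin and uroplakin relatives, 6 were tested and *Krt80* alone was called, from 10 and 5 counts in Ctrl to 27 and 26 in miR-128OE (1.53, SE 0.43, adjusted p = 0.0237), a call that was lost with any library left out. *Krt5*, *Upk2* and *Upk3bl* had 0 counts in all 4 libraries, which allows up to 0.371 CPM in the shallowest.

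Markers of other tissues and cell types were read in the same libraries, since mesothelium also covers the lung and lies close to the thymus. Lung epithelial genes were near the floor, with 4 of 10 at or under 3 counts throughout and sums of 5.36, 6.48, 3.87 and 3.71 CPM in the order WH7 to WH10. *Sftpd* had 0 counts, and *Nkx2-1*, which is also a thyroid gene, fell from 20 and 17 to 6 and 11 counts (-1.42, SE 0.46, adjusted p = 0.0416), a call lost with any library left out. Thymus genes summed to 10.9 and 10.2 CPM in Ctrl and 6.73 and 7.14 CPM in miR-128OE. *Foxn1* and *Dntt*, which define thymic epithelium and lymphocytes, had 0 counts, and 4 of the 11 genes were at or under 3 counts throughout. Other thymus genes were detected, among them *Psmb11* at 42, 16, 17 and 28 counts in the order WH7 to WH10. In the same order *Lck* had 23, 12, 11 and 13 counts and *Cd8a* 18, 9, 9 and 12. *Ptcra*, a gene of thymocytes, fell (-1.54, SE 0.43, adjusted p = 0.0231), and its call too was lost with any library left out. In WH7, 0 of 2 tested lung genes and 1 of 5 tested thymus genes (*Psmb11*) were at least 1.5 times as high as in WH8. So were 2 of 4 tested liver genes (*Ahsg* and *Ttr*), 1 of 4 of skeletal muscle (*Myh8*, 92 against 14 counts) and 1 of 4 of brown fat (*Ucp1*). That much lower in WH7 were 1 thymus, 1 liver and 1 skeletal muscle gene. Over all tested genes the shares were 6.11% higher and 4.43% lower. *Scgb1a1*, a lung gene with too few counts to be tested, had 8 counts in WH7 and 0 in the others. Of the liver list, *Fga* and *Fgb* had 0 counts, and the sums were 16.2, 9.72, 10.3 and 11.1 CPM. *Apoa2* fell from 18 and 18 to 0 and 4 counts (-3.40, adjusted p = 0.00902, and -2.55 without WH9, where its call was lost). *Ahsg* was at 10.2, 1.80, 4.04 and 5.36 CPM in the order WH7 to WH10, and *Ttr* had 15, 5, 26 and 23 counts. Neither was called. Of the skeletal muscle list, *Myod1* had 0 counts and the sums were 15.1, 9.48, 11.4 and 10.6 CPM. The list for stratified or airway epithelium had 4 of 5 genes at or under 3 counts. Brown fat genes summed to 33.5 and 33.7 CPM in Ctrl and 71.6 and 54.7 CPM in miR-128OE, with 3 of 4 tested genes called higher (*Ucp1*, *Cidea* and *Adipoq*), of which *Ucp1* alone kept its call with each library left out.

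Within the heart, the lists of atrial myocytes, fibroblasts and macrophages were higher in WH7 than in WH8. All 4 atrial genes (*Nppa*, *Myl7*, *Myl4* and *Sln*, a list made after the values were seen) were at least 2 times as high in WH7 as in WH8, with a summed fold of 8.38. With all libraries, 0 of the 4 were called by edgeR's quasi-likelihood test, 0 had an unadjusted p under 0.05 and DESeq2 called 0. Without WH7 all 4 were called higher, and without WH8 all 4 were called lower. Of the 8 fibroblast genes 5 were at least 1.5 times as high in WH7, with sums of 10330, 6681, 9152 and 9867 CPM in the order WH7 to WH10. Here WH8 was the library apart, and WH7 was the highest in 2 of the 8 genes. With all libraries 1 gene was called (*Lum*, 0.63, SE 0.19, adjusted p = 0.0286), without WH7 all 8 were called higher, and without WH8 1 was called higher (*Lum*) and 2 lower. Of the 6 macrophage genes 4 were that much higher, with sums of 104, 73.0, 82.2 and 84.3 CPM. Meanwhile, 0 of 6 endothelial, 0 of 6 mural and 0 of 8 CM genes differed by that much in the same direction, and CM genes summed to 47210 and 50594 CPM in Ctrl and 61665 and 60133 CPM in miR-128OE. Of these lists, 2 endothelial genes rose (among them *Pecam1*, 0.42) and 2 fell (*Egfl7*, -0.36, and *Emcn*, -0.29), 2 mural genes rose (*Acta2*, 0.94, and *Rgs5*, 0.29) and 1 fell (*Myh11*, -0.64), and 3 CM genes rose (among them *Actc1*, 1.34, and *Pln*, 0.59) and 2 fell (among them *Ryr2*, -0.40). *Emcn* lost its call without WH7 (-0.18, adjusted p = 0.131), and of the genes named here only *Acta2* and *Actc1* kept theirs with each library left out. Whether the amount of atrium or of other tissue in a library had a part in the level of the mesothelial genes was not tested.

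**Figure D4:**
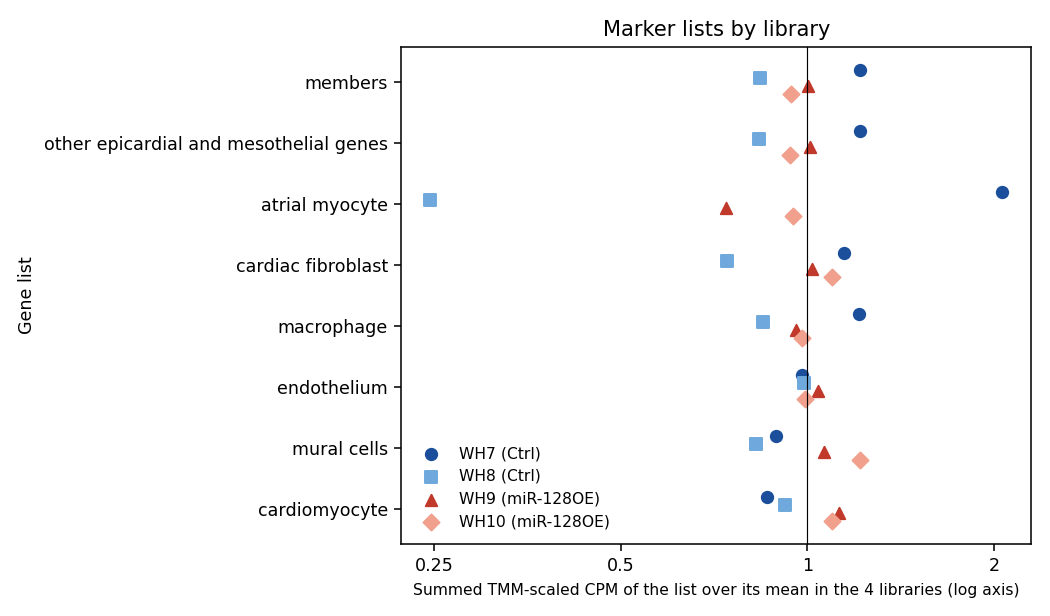
Summed TMM-scaled CPM of each marker list in each library, divided by the mean of the 4 libraries (log axis, where 1 is the mean), with Ctrl in blue and miR-128OE in red. The 10 genes (labelled members) and the other epicardial and mesothelial genes were both at 1.22 in WH7 and 0.839 and 0.835 in WH8, the atrial list ran from 0.246 in WH8 to 2.06 in WH7, and the endothelial list stayed between 0.979 and 1.04.

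The 5 genes outside the set whose pattern over the 4 libraries was nearest to the mean of the 10 genes were *Prx*, *Chst2*, *Fcgr3*, *Erlin1* and *Pcdhb5*, with root mean square differences of 0.0192 to 0.0534 on the log2 CPM scale among 12936 candidates. *Prx*, the nearest, had 10.1, 5.52, 7.40 and 6.57 CPM in the order WH7 to WH10. The mean joins genes that were high in WH7 with genes that were alike in both Ctrl libraries, so it need not match any single gene of the 10. Over 4 libraries such likeness is a description only.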

How the data were processed

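Reads of low quality were discarded by the authors, and TopHat2 placed the others on mm10 (GRCm38) before counting on known genes. They deposited raw counts per gene for 4 libraries. Gene models, strand handling and the rule for reads that match several genes are not given in the sources used here, so overlapping genes are uncertain. Here, R 4.3.3 and edgeR 4.0.16 were used with the filterByExpr defaults (minimum count 10), TMM factors and the quasi-likelihood test over 14266 genes, fitted by group without covariates and adjusted by Benjamini-Hochberg. Called genes had an adjusted p under 0.05. Each SE is the absolute log2 difference divided by the square root of the quasi-likelihood F statistic, so it carries the variance of that test. Replicates are libraries with separate labels. The p-values rest on counting error, on the spread between these libraries and on variance borrowed across genes (7.44 prior degrees of freedom). They need not reflect the spread between animals. Replicates were not duplicates (chi-square per degree of freedom of 12.2 for Ctrl and 5.75 for miR-128OE). Symbols were matched from Entrez numbers for 24374 of 24454 genes, and exon lengths came from GENCODE M21. CPM per kb divides by the merged exon length.

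The 10 genes and the lists were chosen with earlier results of these data known, and the atrial and sex-linked lists after seeing the values. Genes named were all 10 and every called gene of the other epicardial and mesothelial list. Of each other list at most the 3 called genes with the smallest p were named. Named after their values were seen were 2 retinoic acid genes, and uncalled genes of the lung, thymus, liver and skeletal muscle lists. Defining markers at the floor and the 5 genes of nearest pattern were also named. The test was checked on simulated data of 14266 genes, where 11.3% of the calls were false, above the threshold of 0.05. Few genes were changed in that simulation and 4490 were called in the data, so this share need not hold here. Calls may be less certain than their adjusted p, those close to the threshold among them. Alternatives were DESeq2 1.42.0, the exact and likelihood ratio tests of edgeR, other scaling factors, other filters, and each library left out. RNA-seq of wild-type hearts at other ages was not analysed here.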

Additional observations from a re-analysis of the deposited data

How the results depend on the processing

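No paired analysis was possible because the labels name no litter, batch or pair for the 4 libraries (WH7 to WH10). With 1 library left out in turn, the genes called ranged from 1564 to 5038 (4490 with all), those of the other epicardial and mesothelial list from 2 to 10 (6 with all) and those of the related and cell type lists from 6 to 34 (28 with all). The median log2 difference of the 10 genes ranged from -0.44 to 0.31 (-0.40 with all), positive only without WH7, and from -0.50 to -0.39 under the other 8 alternatives. With all libraries, 23 genes of the other epicardial and mesothelial list and 88 of the related lists were tested. With DESeq2, 3 of the former and 16 of the latter were called, and with no filter on low counts 11 of 26 of the former. The cause was not tested. Calls over all genes were 3124 of 14266 with DESeq2 and 5323 of 18880 with no filter. Of 4490 calls 2347 were higher, but only 1611 of 4559 with total counts as the scale, which moved the median of all genes from -0.01 to -0.11. No scaling turned the sign of any of the 10 genes. With 2 libraries a group, a single library could set the result, and low counts (17 for *Lrrn4* in WH8) limited precision. A lone library was assumed to vary as the other group did.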
